A study of Mus musculus with 6 samples.

Results

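Trpc2, Ano1, Ano2, Omp and Slc17a6 code for transduction channels of vomeronasal sensory neurons and for proteins of their mature state, and their RNA was compared between AP-2e null and wild-type vomeronasal organs (VNOs). The 5 genes were taken by name among 22180 genes with a probe set of their own, and each had 1 such probe set, so no choice between probe sets was needed. The samples were VNOs of 3 AP-2e null and 3 wild-type mouse samples at postnatal day 17, on 1 Affymetrix whole-transcript array each. AP-2e is a transcription factor encoded by Tfap2e, and the design set the null VNOs directly against the wild-type VNOs. The titles call the samples biological replicates, but the sources used here give neither the strain nor the number of animals in each. The p-values therefore judge differences against the spread between these samples. The sources name the null allele without describing it.

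The VNO is the organ of the nasal septum through which mice sense pheromones. Its neurons fall into an apical class with V1R receptors and a basal class with V2R receptors. In both classes a receptor acts through a G protein and phospholipase C, and the diacylglycerol that is formed opens the cation channel TRPC2. Calcium that enters then opens the chloride channels ANO1 and ANO2, which add to the current. OMP is a small cytoplasmic protein of mature olfactory and vomeronasal neurons. Slc17a6 encodes VGLUT2, the transporter that loads glutamate into the synaptic vesicles with which these neurons signal to the olfactory bulb. The mouse main olfactory epithelium also makes OMP, ANO2 and VGLUT2.

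Array values are log2 signals, so a difference of 1 is a 2-fold change, and levels of different probe sets are not compared. Array medians lay between 4.997 and 5.079, and pairs of arrays correlated across all probe sets, which are not independent, with r between 0.971 and 0.985. The targeted gene Tfap2e stood at 5.97, 6.09 and 6.04 in AP-2e null VNOs, against 6.46, 6.76 and 6.92 in wild-type VNOs. The sources used here do not say whether its probes cover the mutated stretch, so this is no full check of the labels. AP-2e null replicate 1 was the only array with high Xist, the RNA of the inactive X chromosome, at 10.64 against 3.55 to 3.58 on the other arrays, and it had the lowest signal for the Y-linked genes Kdm5d, Uty and Eif2s3y. AP-2e null replicate 2 stood apart in cartilage genes, with a list mean of 8.19 against 5.83 to 6.17 on the other arrays. Trpc2, Omp and the apical and basal neuron genes all had signals above the lower quartile of the arrays, 3.62. Most probe sets pass that bar, so this is no check of the labelled tissue.

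Slc17a6, Ano2 and Omp had all 3 AP-2e null arrays under all 3 wild-type arrays, with differences of -0.59, -0.40 and -0.41 on the log2 scale, while Trpc2 (-0.04) and Ano1 (0.06) overlapped between genotypes. None of the 5 passed an adjusted p of 0.05 over all genes in limma, a linear model that shares its estimate of spread across genes. Of all 22180 genes, 0.225% passed, 0.216% lower and 0.00902% higher. At an unadjusted p under 0.05, Ano2 and Slc17a6 were lower in limma and in a plain one-way model per gene. At that level 2.49% of all genes were lower and 1.9% higher in limma. The plain model had 386 lower and 248 higher of the 22180 genes. The 3 genes without overlap compare with 3.64% of all genes whose AP-2e null arrays all lay under the wild-type arrays, and the 0 members with the opposite order compare with 3.42%. In whole-organ RNA, fewer cells of a type and less RNA per cell cannot be told apart.

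**Figure D1:**
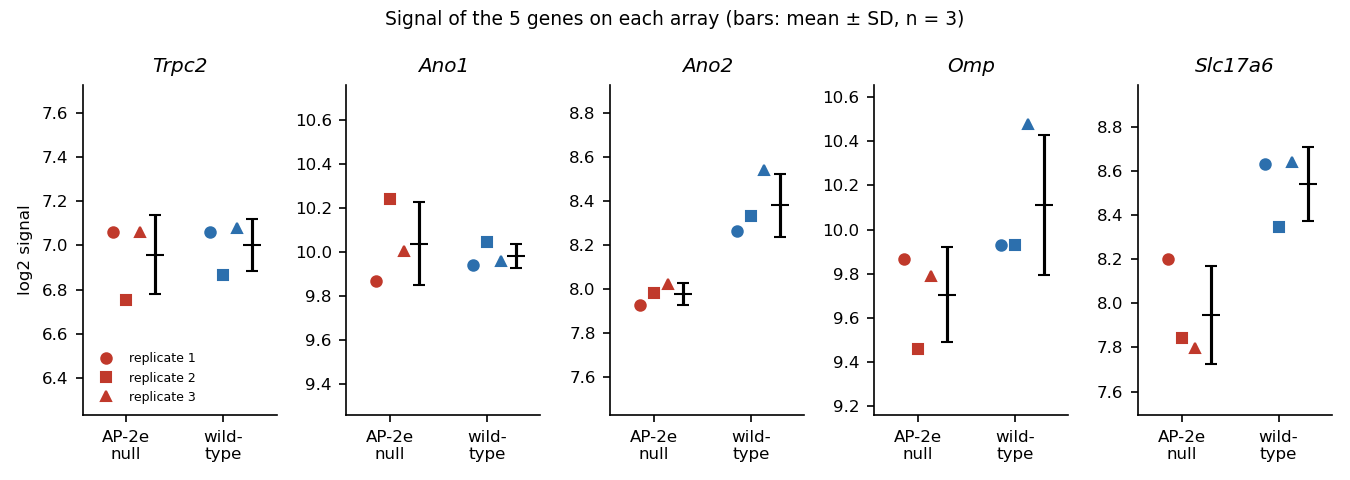
Log2 signal (vertical axis, the same span in each panel) of Trpc2, Ano1, Ano2, Omp and Slc17a6 on each array of AP-2e null (red) and wild-type (blue) VNOs, with symbols for replicate numbers and black bars for mean ± SD (n = 3 each). Ano2, Omp and Slc17a6 show no overlap between the genotypes, with a gap of 0.06 for Omp, and Trpc2 and Ano1 overlap.

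Trpc2 encodes the channel without which VNO neurons largely lose their response to pheromones. Its log2 signal was 7.06, 6.75 and 7.06 in AP-2e null replicates 1, 2 and 3, against 7.06, 6.87 and 7.08 in wild-type replicates 1, 2 and 3. Replicate 2 was the lowest array of each genotype, and the groups lay on top of each other. The means were 6.96 ± 0.18 in AP-2e null and 7.00 ± 0.12 in wild-type VNOs (SD, n = 3 each). The difference was -0.04 (SE 0.11, adjusted p = 0.946 in limma), with a 95% confidence interval from -0.33 to 0.24. Without AP-2e null replicate 2, the array with high cartilage signal, the difference was 0.06. Trpc2 had an identical value on 3 arrays, AP-2e null replicates 1 and 3 and wild-type replicate 1. Such ties were common: 6049 genes (27.3% of those tested) had the same value on 3 or more arrays. On these particular 3 arrays 923 genes (4.16%) had 1 value, of which 221, like Trpc2, had it on no other array.

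Ano1 encodes a calcium-activated chloride channel that VNO neurons share with gland and other epithelial cells. It had 9.87, 10.24 and 10.002 in AP-2e null VNOs and 9.94, 10.04 and 9.96 in wild-type VNOs. The highest and the lowest of the 6 values were both from AP-2e null arrays. The means were 10.04 ± 0.19 in AP-2e null and 9.98 ± 0.06 in wild-type VNOs (SD, n = 3 each), with a difference of 0.06 (SE 0.11, 95% confidence interval -0.21 to 0.32, adjusted p = 0.925 in limma). Without AP-2e null replicate 2, which held the highest value, the difference was -0.05, so its sign rested on that array. The list of 15 measured gland genes, which marks cells that also make Ano1, ranged from 10.51 to 10.64 in AP-2e null and from 10.20 to 10.96 in wild-type VNOs, with a median difference of 0.01. Of that list, 0 genes passed in limma or in the plain model. At the unadjusted level limma had 0 and the plain model 1, higher, against 248 higher of all 22180 genes in that model.

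Ano2, the other calcium-activated chloride channel of chemosensory neurons, was measured at 7.93, 7.98 and 8.02 in AP-2e null VNOs, against 8.27, 8.33 and 8.54 in wild-type VNOs. Its AP-2e null arrays lay within 0.10 of each other, and the gap to the nearest wild-type array was 0.24. The means were 7.98 ± 0.05 in AP-2e null and 8.38 ± 0.14 in wild-type VNOs (SD, n = 3 each), which is 1.32-fold lower in AP-2e null VNOs. The difference of -0.40 (SE 0.09, 95% confidence interval -0.62 to -0.19) had an unadjusted p of 0.00413 and an adjusted p of 0.705 in limma, and 129 of the 22180 genes had a smaller p. With each array left out in turn it lay between -0.46 and -0.32, and its unadjusted p stayed under 0.05 in all 16 alternatives. Several of the alternatives could change only the SE and p of Ano2, not its difference.

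Omp stood at 9.87, 9.46 and 9.79 in AP-2e null VNOs and at 9.93, 9.93 and 10.48 in wild-type VNOs. Wild-type replicate 3 was far above the other wild-type arrays, and AP-2e null replicate 2 was the lowest of all. The means were 9.70 ± 0.22 in AP-2e null and 10.11 ± 0.32 in wild-type VNOs (SD, n = 3 each), or 1.33-fold lower in AP-2e null VNOs. The difference of -0.41 (SE 0.19, 95% confidence interval -0.89 to 0.07) had an unadjusted p of 0.0811 and an adjusted p of 0.873 in limma. Its size was close to that of Ano2, with a larger SE. Wild-type replicate 3 moved the size most: without it the difference was -0.22, and without AP-2e null replicate 2 it was -0.28.

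Slc17a6 showed the largest difference of the 5 genes. Its log2 signal was 8.20, 7.84 and 7.80 in AP-2e null VNOs, against 8.63, 8.35 and 8.64 in wild-type VNOs. AP-2e null replicate 1, the array with high Xist, came closest to the wild-type arrays, at a distance of 0.15 from wild-type replicate 2. The means were 7.95 ± 0.22 in AP-2e null and 8.54 ± 0.17 in wild-type VNOs (SD, n = 3 each), which is 1.51-fold lower in AP-2e null VNOs. The difference of -0.59 (SE 0.14, 95% confidence interval -0.95 to -0.24) had an unadjusted p of 0.00667 and an adjusted p of 0.860 in limma, and 171 genes had a smaller p. Without AP-2e null replicate 1 it was -0.72, and over all single arrays left out it lay between -0.72 and -0.52.

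**Figure D2:**
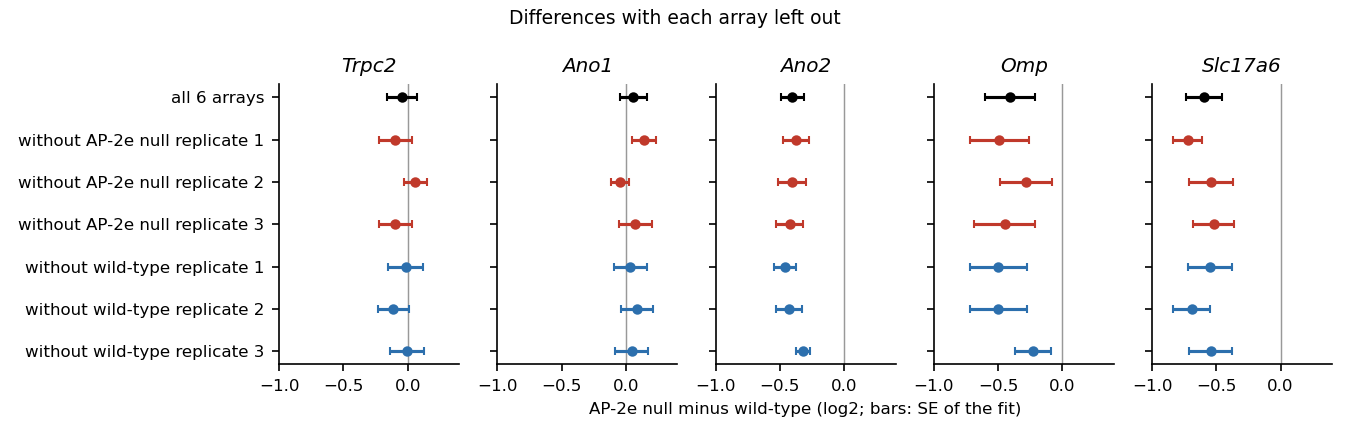
Log2 difference, AP-2e null minus wild-type (horizontal axis, points with the standard error of the limma fit) of each of the 5 genes with all 6 arrays (black) and with single AP-2e null (red) or wild-type (blue) arrays left out. Ano2, Omp and Slc17a6 stay below 0 in all 7 fits, and Trpc2 and Ano1 change sign without AP-2e null replicate 2.

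Against all genes, the differences of the 3 lower members lay in the low tail. Only 0.906% of genes had a lower difference than Slc17a6, 2.08% a lower one than Omp and 2.15% a lower one than Ano2. Trpc2 had 36.4% of genes below it and Ano1 68.2%. The median difference of the 5 genes was -0.40, against a median over all genes that rounded to 0.00, and 4 of the 5 were below 0, against 50.3% of all genes. The lowest difference of any gene in the table was -5.77.

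**Figure D3:**
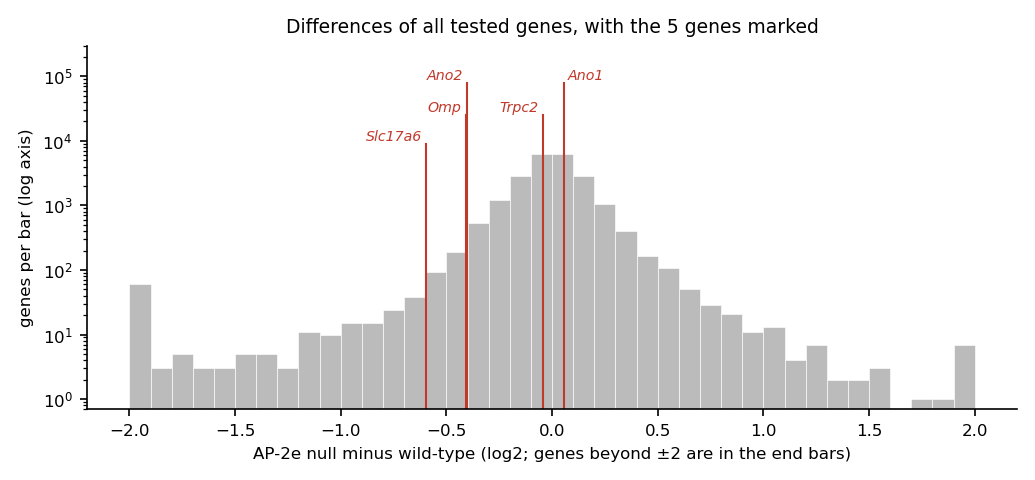
Number of genes (vertical log axis) by difference AP-2e null minus wild-type (horizontal axis, log2, in bars of 0.1 with genes beyond 2 in the end bars), with red lines for the 5 genes. Trpc2 at -0.04 and Ano1 at 0.06 stand in the tallest bars, and Ano2 at -0.40, Omp at -0.41 and Slc17a6 at -0.59 stand in the lower tail.

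Whether the members changed unequally was asked for all 10 pairs, from the difference of 2 members on each array, by an exact permutation test (2-sided, 20 arrangements of the labels). The smallest p that 3 against 3 allows is 0.1, so no pair could pass 0.05. Trpc2 minus Slc17a6 averaged -0.99 ± 0.22 in AP-2e null and -1.54 ± 0.05 in wild-type VNOs (SD, n = 3 each), a shift of 0.55. Trpc2 minus Omp averaged -2.75 ± 0.05 in AP-2e null and -3.11 ± 0.27 in wild-type VNOs, a shift of 0.36 that was 0.22 without wild-type replicate 3. Ano1 minus Ano2 averaged 2.06 ± 0.17 in AP-2e null and 1.60 ± 0.16 in wild-type VNOs, a shift of 0.46. The offset between probe sets has no meaning of its own, and a positive shift says that the second gene of the pair was lower in AP-2e null VNOs relative to the first. Each of these 3 was without overlap of the genotypes, with an exact p of 0.1 and an adjusted p of 0.333 over the 10 pairs. The exact p of the other 7 pairs was between 0.2 and 1. Ano2 minus Omp shifted by 0.01, the smallest of the 10 with all arrays, and by -0.12 to 0.11 with single arrays left out.

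The promoters of members that were lower (Ano2, Slc17a6) and of members that overlapped between genotypes (Trpc2, Ano1) are shown because AP-2 proteins bind DNA at GC-rich sites, written here as GCCNNNGGC. The letters are the 250 bases before the annotated start, 5′ to 3′ on the gene's strand, from RefSeq on GRCm38.p6, and a match to GCCNNNGGC is in capitals. Such windows were at hand for 4 of the 5 genes, not for Omp.
Ano2 (chr6:125690169-125690418, plus strand): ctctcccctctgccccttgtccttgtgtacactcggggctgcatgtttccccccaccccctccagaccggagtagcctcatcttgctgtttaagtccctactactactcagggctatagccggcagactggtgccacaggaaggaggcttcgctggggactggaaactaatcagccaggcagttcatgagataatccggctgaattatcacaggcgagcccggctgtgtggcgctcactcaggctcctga
Slc17a6 (chr7:51621580-51621829, plus strand): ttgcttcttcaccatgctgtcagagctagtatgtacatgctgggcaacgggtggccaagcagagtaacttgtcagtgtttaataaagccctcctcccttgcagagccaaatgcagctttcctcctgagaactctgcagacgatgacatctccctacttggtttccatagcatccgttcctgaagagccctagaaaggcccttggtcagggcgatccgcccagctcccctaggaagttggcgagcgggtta
Trpc2 (chr7:102082866-102083115, plus strand): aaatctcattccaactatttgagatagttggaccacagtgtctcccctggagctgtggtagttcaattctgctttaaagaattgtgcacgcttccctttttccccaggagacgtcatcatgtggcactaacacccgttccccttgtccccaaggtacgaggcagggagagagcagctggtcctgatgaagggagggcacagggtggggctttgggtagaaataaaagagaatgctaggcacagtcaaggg
Ano1 (chr7:144738574-144738823, minus strand): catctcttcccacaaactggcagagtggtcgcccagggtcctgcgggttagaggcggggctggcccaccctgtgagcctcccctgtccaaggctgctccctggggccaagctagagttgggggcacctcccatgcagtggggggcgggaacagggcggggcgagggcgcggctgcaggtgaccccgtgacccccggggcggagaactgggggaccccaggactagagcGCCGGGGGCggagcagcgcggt
Searched on both strands, GCCNNNGGC was found in the Ano1 window, with its first letter 22 bases before the start, and not in the windows of Slc17a6, Trpc2 or this start of Ano2. Of 3 annotated starts of Ano2, the second had 1 match 26 bases before it, and neither of 2 starts of Slc17a6 had any. Of all 32851 windows of the same length, 13.7% held a match. The core CCCNNGGG, bound by the EBF factors of olfactory neurons, occurred 3 times in the Ano1 window, of which 2 matches overlapped each other, and not in the other windows printed, against 11.8% of all windows. The third start of Ano2 had 1 such match, 67 bases before it. The Ano1 window was the richest in G and C, at 72%, against 58% for Ano2, 53.2% for Slc17a6 and 50.8% for Trpc2. These matches are letters in a window, not measured binding.

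Most steps of the cascade around TRPC2 stood close to 0, and some differed without overlap between genotypes. Of 25 listed transduction genes 21 were measured, and without the 3 members among them 18 remained, with 7 lower and 11 higher means, a median difference of 0.03 and 0 past the threshold in limma or the plain model. At an unadjusted p under 0.05 in either test, 2 of these were lower and 1 was higher, against 2.49% and 1.9% of all genes in limma. Without overlap between genotypes, 4 of the 18 were lower and 2 higher, against 3.64% and 3.42% of all genes. Gnao1, the G protein alpha subunit of basal neurons, had 9.79, 9.88 and 9.90 in AP-2e null VNOs against 10.45, 10.38 and 10.77 in wild-type VNOs, a difference of -0.68 (adjusted p = 0.331). Hcn2, a pacemaker channel opened by hyperpolarisation, differed by -0.34 and the related Hcn4 by -0.18. Gng2, a G protein gamma subunit, differed by 0.36 in the other direction. Gnai2, the alpha subunit of apical neurons, was at 0.11, the beta subunit Gnb1 at -0.10, and the phospholipases Plcb2 and Plcb4 at 0.00 and 0.15. The receptors that release calcium from stores, Itpr2 and Itpr3, were at 0.23 and 0.09, the adenylyl cyclase Adcy2 at 0.08 and the phosphodiesterase Pde4a at -0.03. The potassium channel genes Kcnn3 and Kcnj3 were at -0.24 and 0.26.

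In the family of Ano1 and Ano2 no other gene reached an unadjusted p under 0.05. All 10 anoctamin genes were measured, and the 8 beside Ano1 and Ano2 had a median difference of 0.06, with 0 past the threshold and 0 at an unadjusted p under 0.05 in limma or the plain model. Ano4 had the lowest difference of these 8, -0.33, from values near the lower quartile of the arrays (3.83, 3.61 and 3.24 in AP-2e null, 3.81, 3.83 and 4.02 in wild-type VNOs). Ano6, a scramblase and channel of many cell types, differed by 0.13 and Ano10 by 0.08. Of 7 measured TRP channels beside Trpc2, 6 had lower means, with a median of -0.07 and 0 at an unadjusted p under 0.05 in either test. Trpc5 was at -0.33, Trpc1 at -0.19, Trpc6 at -0.07, Trpm5, the channel of chemosensory microvillous cells, at -0.09 and Trpm4 at 0.02. Of the transporters that set the chloride gradient, Slc12a2, which brings chloride into olfactory neurons, was at -0.01, Slc12a5 at 0.07 and Slc12a7 at -0.25 (unadjusted p = 0.117 in limma). Over 17 measured genes of a chloride transport list the median was 0.02. The list also holds kinase genes and Stoml3, which do not code for transport proteins. Of the 17, 0 passed in limma or the plain model or had an unadjusted p under 0.05 in either.

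Genes of glutamate packaging and release had lower means more often than higher ones. Of 20 measured genes beside Slc17a6, 15 had lower means in AP-2e null VNOs, against 50.3% of all genes, and the median was -0.12. None passed the threshold in limma or the plain model, and at an unadjusted p under 0.05, 4 were lower in limma and 3 in the plain model, with 0 higher, against 2.49% lower and 1.9% higher of all genes in limma. Syt1, the calcium sensor of vesicle release, was at 8.94, 8.80 and 8.77 in AP-2e null VNOs and 9.19, 9.07 and 9.21 in wild-type VNOs, a difference of -0.32. The vesicle proteins Syn2 and Syp differed by -0.49 and -0.41 and the vesicle GTPase Rab3a by -0.26, with adjusted p between 0.811 and 0.873 for these 4 genes. Snap25 and Vamp2, which form the fusion complex, were both at -0.12, and Stx1a was at -0.01. The other vesicular glutamate transporters lay under the median signal of the arrays, 5.05, with differences of 0.02 for Slc17a7 and 0.01 for Slc17a8.

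**Figure D4:**
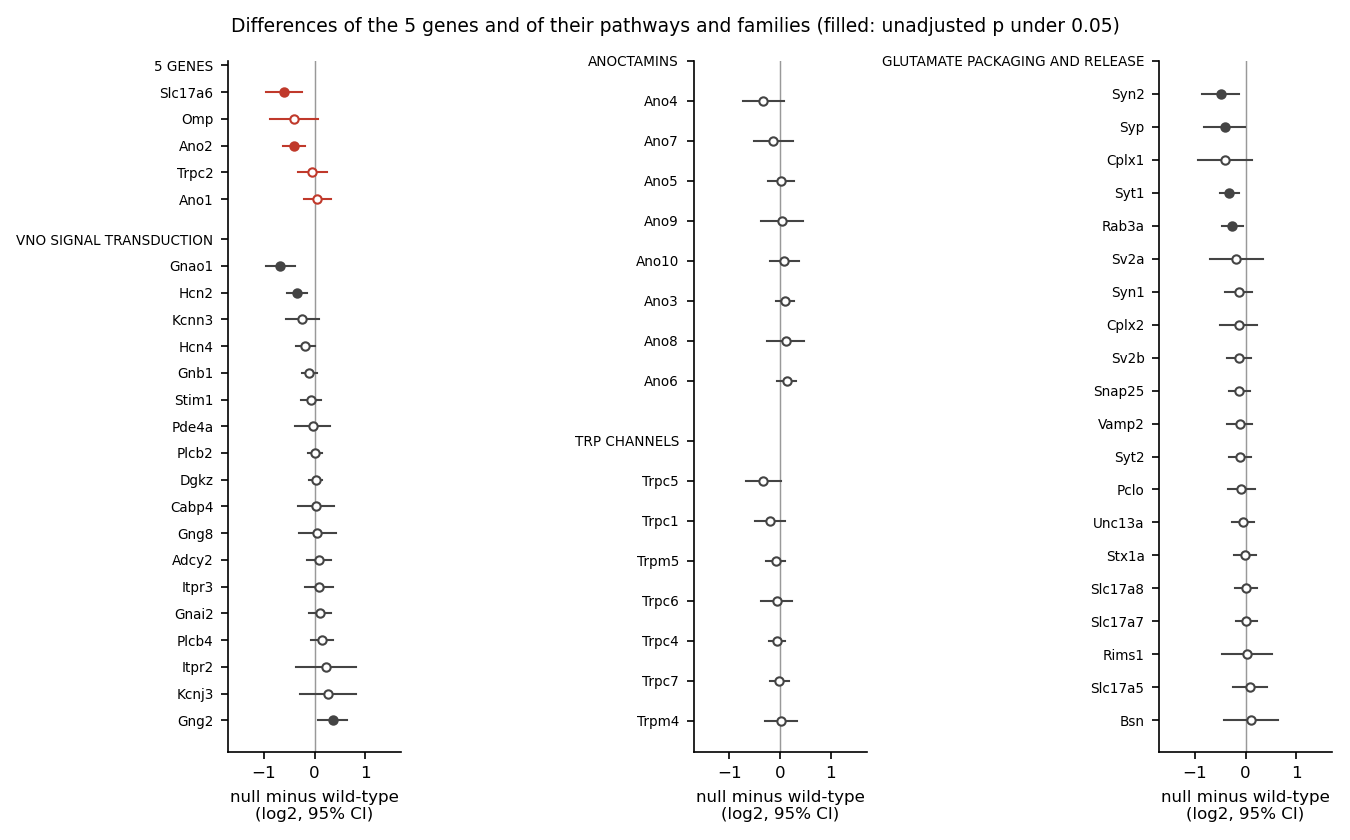
Differences AP-2e null minus wild-type (horizontal axis, log2, points with 95% confidence intervals of the limma fit) of the 5 genes (red) and of genes of their pathways and families (grey), with filled points for an unadjusted p under 0.05. The filled points are Slc17a6, Ano2, Gnao1, Hcn2, Gng2, Syn2, Syp, Syt1 and Rab3a, of which Gng2 alone is above 0.

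Other markers of mature chemosensory neurons, most of which are listed again below as olfactory neuron markers, were evenly split in the direction of their means. Of 16 measured markers beside Omp and Slc17a6, 8 had lower and 8 higher means, the median was -0.01, and 0 passed in limma or the plain model, with 1 lower and 1 higher at an unadjusted p under 0.05 in each, against 2.49% lower and 1.9% higher of all genes in limma. Kcnmb3, a potassium channel subunit, was the lower of these, at 6.74, 6.71 and 6.77 in AP-2e null VNOs against 6.95, 7.27 and 7.47 in wild-type VNOs. Rtp1, which brings odorant receptors to the membrane, was the higher, at 10.97, 10.82 and 10.97 against 10.59, 10.40 and 10.45. Gfy, a Golgi protein of olfactory neurons, differed by -0.14, the channel subunits Cnga4 and Cngb1 by -0.10 and -0.15, and Reep1 by 0.05. Among the 8 higher, Cnga2, S100a5, Gnal and Stoml3 differed by 0.75, 0.74, 0.58 and 0.30 but varied widely between arrays. Their SDs in wild-type VNOs were 1.27, 2.21, 1.60 and 1.03. Pan-neuronal genes had a median of -0.08 over 18 genes, of which 11 were lower, with 0 past the threshold in limma or the plain model and Syt1 alone, lower, at the unadjusted level in each, where 2.49% of all genes were lower in limma. After Syt1, the next by p were Chga at -0.29 and Eno2 at 0.25. Without overlap between genotypes, 2 of the 18 were lower and 1, Eno2, was higher, against 3.64% and 3.42% of all genes. Tubb3, the neuronal tubulin, was at -0.25, Elavl3 at -0.17, Uchl1 at -0.13 and Stmn2 at 0.00. Markers of progenitors and immature neurons had a median of 0.05 over 15 genes, of which 5 were lower and 10 higher. None passed the threshold or had an unadjusted p under 0.05 in either test. Without overlap 1 was lower (Tubb2b, -0.17) and 1 higher (Crmp1, 0.16), against 3.64% and 3.42% of all genes. Gap43 stood at -0.01.

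Of 9 basal neuron markers 8 had lower means in AP-2e null VNOs and 1 a higher mean, by 0.06. The list mean ranged from 8.33 to 8.40 in AP-2e null and from 9.11 to 9.22 in wild-type VNOs, and 8 of 9 genes were lower without overlap between genotypes, against 3.64% of all genes. At an unadjusted p under 0.05, 8 were lower in limma and 7 in the plain model, against 2.49% of all genes in limma. The V2R co-receptor Vmn2r7, which fell by 1.75 (adjusted p = 0.00465 in limma), was the 1 that passed, with 0 in the plain model. Without AP-2e null replicate 2 or 3 its adjusted p was 0.0551 or 0.0561. This list holds Tfap2e itself and V2R genes, and was chosen with their values known. The 8 apical markers ranged from 9.32 to 9.38 in AP-2e null and from 9.25 to 9.36 in wild-type VNOs. Their median difference was 0.08, with 0 past the threshold in limma or the plain model. At the unadjusted level 1 was lower and 2 higher in limma (0 and 1 in the plain model), against 2.49% and 1.9% of all genes in limma. Without overlap 1 was lower and 2 were higher, against 3.64% and 3.42% of all genes. The part of the basal markers in the values of Slc17a6, Ano2 and Omp was not tested.

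Tissue of the main olfactory epithelium, whose neurons make Omp, Ano2 and Slc17a6, was looked for by its markers. Of 12 measured olfactory neuron markers beside Ano2, 7 had lower and 5 higher means, with a median of -0.07. None passed in limma or the plain model, and at an unadjusted p under 0.05, 2 were lower and 1 higher in limma and 1 was lower and 1 higher in the plain model, against 2.49% and 1.9% of all genes in limma. Of these markers 1 in each direction was without overlap, against 3.64% lower and 3.42% higher of all genes. Most of the 12, Kcnmb3 and Rtp1 among them, were also counted among the mature chemosensory neuron markers. The counts of these lists are therefore not separate results. Cnga2, the channel of canonical olfactory neurons, was at 4.48, 5.42 and 5.29 in AP-2e null VNOs and at 3.36, 5.75 and 3.82 in wild-type VNOs. The neuronal markers Gnal and S100a5 and Cyp2g1, an enzyme of olfactory supporting cells, were likewise lowest on wild-type replicate 1 and highest on wild-type replicate 2. Most of the 12 markers had another order. Stoml3 and Cnga4 were highest on wild-type replicate 2 but lowest on AP-2e null replicate 1. Gfy and Kcnmb3 were highest on wild-type replicate 3, and Rtp1 was lowest on wild-type replicate 2. Cyp2g1 ran from 7.27 to 10.01 in AP-2e null and from 4.33 to 10.13 in wild-type VNOs. The mean of the 12 markers ranged from 7.69 to 8.08 in AP-2e null and from 7.55 to 8.21 in wild-type VNOs. That mean joins markers of unequal spread. Over the 6 arrays Cnga2 ran from 3.36 to 5.75, Gfy from 11.23 to 11.56 and Cngb1 from 6.78 to 7.09. How far the steadier ones mark this tissue was not tested. The part of this tissue in the values of Omp, Ano2 and Slc17a6 was not tested.

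**Figure D5:**
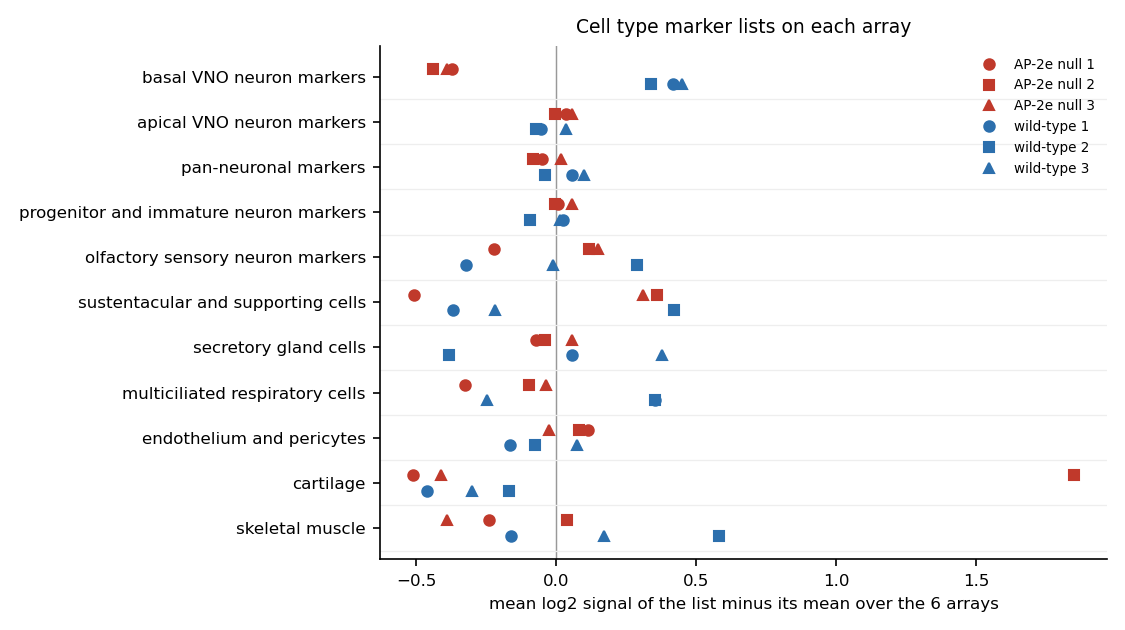
Mean log2 signal of each cell type marker list on each array, less the list's mean over the 6 arrays (horizontal axis), for AP-2e null (red, upper points of a row) and wild-type (blue, lower points) VNOs. The basal neuron list separates the genotypes, the olfactory and supporting cell lists spread within both, and the cartilage list stands apart on AP-2e null replicate 2. The basal list holds Tfap2e itself and V2R genes, and was chosen with their values known.

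Multiciliated respiratory cells ranged from 7.97 to 8.26 in AP-2e null and from 8.05 to 8.65 in wild-type VNOs, with all 10 measured genes lower and 0 past the threshold or an unadjusted p under 0.05 in either test. Endothelium and pericytes ranged from 8.81 to 8.95 in AP-2e null and from 8.67 to 8.91 in wild-type VNOs, with 10 of 12 genes higher, 2 of them without overlap, against 3.42% of all genes. None of the 12 passed in limma or the plain model. Pdgfrb, a pericyte receptor, was the 1 with an unadjusted p under 0.05 in each, where 1.9% of all genes were higher in limma. Its difference was 0.26 (unadjusted p = 0.00468 and adjusted p = 0.756 in limma). Skeletal muscle genes ranged from 4.90 to 5.33 in AP-2e null and from 5.13 to 5.87 in wild-type VNOs, with 7 of 8 lower. Of the 8, 0 passed the threshold in limma or the plain model. At the unadjusted level 1 was lower in each, against 2.49% of all genes in limma. All 10 cartilage genes had higher means, with 0 past the threshold or at an unadjusted p under 0.05 in either test. The part of these cell types in the members' values was not tested. On AP-2e null replicate 2, the array with high cartilage genes, Omp and Trpc2 had their lowest and Ano1 its highest values. Without that array Omp differed by -0.28, Slc17a6 by -0.54 and Ano2 by -0.41. The part of cartilage tissue in these values was not tested beyond this.

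The genes most like each member were sought by the root mean square difference of values centred on the gene's own mean over the 6 arrays, among genes brighter than the median gene. For Ano2 they were Stom, a membrane protein that regulates ion channels, at 0.039, Astn1, which acts in neuronal migration, at 0.060 and Hdac11, a histone deacetylase, at 0.063. Stom had 10.74, 10.77 and 10.91 in AP-2e null VNOs against 11.06, 11.09 and 11.36 in wild-type VNOs. For Omp they were Trnp1, a nuclear protein known from neural progenitors, at 0.058, Cmtr2, which modifies the RNA cap, at 0.075 and Amer2 at 0.078. Trnp1 had 9.08, 8.78 and 8.98 in AP-2e null VNOs against 9.08, 9.14 and 9.77 in wild-type VNOs, with the same high value on wild-type replicate 3. For Slc17a6 they were Apmap at 0.077, Lsmem1 at 0.088 and Nxph3, a secreted ligand of neurexins, at 0.093. Apmap differed by -0.69, with an adjusted p of 0.318 in limma. For Trpc2 the nearest were Shisal1 at 0.016, Coq3 at 0.025 and Nr2e1 at 0.032, and Shisal1 also had 3 equal values. For Ano1 they were the glycolytic enzyme gene Tpi1 at 0.030, Chd1, a chromatin remodeller, at 0.032 and Rbm15 at 0.035. These distances describe 6 arrays, with no test. Among the members the smallest distance was 0.17, for Ano2 and Omp, and the largest 0.41, for Ano1 and Slc17a6.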

How the data were processed

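RNA of 6 mouse VNO samples was measured on 1 array each. The deposited table holds log2 signals, and per the submitters' processing notes the authors used RMA (background correction, quantile normalization, probe summary) and the Transcriptome Analysis Console; the sources used here give no versions, settings or genome build. Of 41345 probe sets, 23521 named 1 gene in the platform annotation, 1814 several and 16010 none. Entrez identifiers matched 23328 in RefSeq (GRCm38.p6), with 0 symbols changed. The probe set with the highest mean was kept per gene (22180 genes, no filter on dim genes). Groups came from the sample titles. AP-2e null was compared with wild-type in limma 3.58.1 (R 4.3.3; lmFit, eBayes, 2-sided, no covariate), with Benjamini-Hochberg adjustment over all genes at 0.05, and pairs of members by exact permutation (scipy 1.17.1). The number of arrays limits the precision. The fit was tested on simulated data with changes larger than those of the members, so that test does not cover changes of their size. The members and lists were chosen with earlier results of these data known. By the naming rule Tfap2e, the 5 members and family and pathway genes were named. The rule also took up to 4 genes of each list by p and 3 nearest genes per member. Xist, the Y-linked genes, Gnal, S100a5, Stoml3 and Cyp2g1 were named after their values were seen. So were the list members Tubb3, Elavl3, Uchl1, Stmn2, Gap43, Gfy, Cnga4, Cngb1 and Reep1. Alternatives were other moderation, probe set rules, normalizations, a filter, array weights, a replicate block and leaving out each array. Plots used matplotlib 3.10.9.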

Additional observations from a re-analysis of the deposited data

How the results depend on the processing

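None of the 5 genes passed the threshold under any of the 16 alternatives each. Other moderation, the plain model, the probe set rules, the filter and the replicate block left each member's difference unchanged. These settings could change only its SE and p. Ano2 lay between -0.46 and -0.32 (adjusted p 0.345 to 0.942), Omp between -0.50 and -0.22 (0.779 to 0.942) and Slc17a6 between -0.72 and -0.52 (0.591 to 0.942), all below 0. Trpc2 (-0.11 to 0.06) and Ano1 (-0.05 to 0.14) changed sign without AP-2e null replicate 2, to 0.0593 and -0.0457. Same-numbered samples of the genotypes correlated in their deviations at 0.04, 0.11 and 0.02, so the numbers were not taken as pairs. With the replicate block 22 genes were lower and 0 higher, against 48 and 2 without it. The plain model gave 4 and 0. Higher genes numbered 1 when probe sets were averaged per gene, 4 with repeated quantile normalization and 1 with array weights. With single arrays left out, 17 to 32 genes were lower and 0 to 1 higher. Fewer samples entered these last fits, and the cause of the other changes was not tested. Vmn2r7 passed except in the plain model (adjusted p = 0.0940) and without AP-2e null replicate 2 or 3 (0.0551 and 0.0561). With single arrays left out, the shift of Trpc2 minus Ano1 changed sign without AP-2e null replicate 2 (0.105, against -0.10 with all arrays), that of Ano2 minus Omp without AP-2e null replicate 2 or wild-type replicate 3 (-0.12 and -0.10, against 0.01), and that of Trpc2 minus Omp was 0.22 without wild-type replicate 3, against 0.36. The other 7 pairs stayed above 0 in these fits.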
